A study of Mus musculus with 3 samples.

Results

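The genes described here are 48 listed mouse genes of mitosis and the spindle, comprising the cyclins and kinases that drive mitosis, the kinesin motors, the kinetochore and checkpoint proteins, the condensins and their transcription factors. They were taken by symbol from a list of mitotic genes, and 47 of the 48 had a named probe set among 19938 genes with a value on the arrays. Ccnb1 had none under its own symbol and was not analysed here. Transcripts had been measured on Affymetrix Mouse Gene 1.0 ST arrays in 3 cultured lines of FSP1-positive forestomach fibroblasts, with 1 array per line. The levels below are log2 array signals and the differences are log2 signals of one array minus those of another, so that -1 is 2-fold lower. FSP1, encoded by S100a4, is used as a marker of fibroblasts, and the forestomach is the squamous-lined part of the rodent stomach. The first line carried conditional knockouts (cKO) of Tgfbr2, the type II TGF-beta receptor gene, and of Smad4, the gene of the SMAD shared by TGF-beta and BMP signals, and its cells were from normal forestomach. The second line, Tgfbr2 cKO, carried the receptor knockout alone, and its source tissue was a forestomach squamous cell carcinoma. The third line was wild type, from normal forestomach. The mice are described as mixed C57BL6 and BALBc, male or female, and the cells were taken below confluency at passages 4 to 6 in medium with serum. The labels name no Cre driver for the knockouts, no age, and no number of animals or clones behind a line.

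Cells that divide make most of these transcripts in a burst from late S phase to mitosis. The cyclin-bound kinase CDK1 starts mitosis, kinesins and spindle proteins build and move the spindle, the kinetochore ties each chromosome to it, and the checkpoint holds anaphase back until every chromosome is attached. In cells that are not dividing, the DREAM complex keeps these genes silent, and in dividing cells the MuvB core of the same complex works with MYBL2 and FOXM1 to switch them on. Fibroblasts kept below confluency in serum normally divide.

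Nearly the whole group was lower in the Tgfbr2/Smad4 cKO line than in wild type. Among the 47 genes, 38 (80.9%) showed a level at least 2-fold lower and 0 one at least 2-fold higher, beside 2.18% and 1.22% of the 11808 genes compared. The difference was below 0 for 46 of the 47 and above 0 for 0, beside 32.2% and 31.1% of all genes. The median difference of the members was -1.49, a 2.81-fold lower level, and the median over all genes was 0. Bub1 had the largest difference, -2.64, and Espl1 the smallest, with the same value in all 3 arrays. Between those ends the middle members were close together, with the quartiles of the differences at -1.89 and -1.07. The genes compared were those that reached 6.63, the median of all values, in at least 1 array, and each of the 47 members did so. In the Tgfbr2/Smad4 cKO array 10 of them lay under that level, so these 10 met the level rule through the arrays in which they were higher. They were Bub1, Ttk, Kif11, Kif4, Kif18a, Cenpe, Cenpf, Aspm, Cdc25c and, by its average, Top2a. The sizes of their differences rest on dim signals. Without those 10, 31 of 37 members were at least 2-fold lower, beside 202 of the 11636 genes at or above that level in the same array. The median of the 37 was again -1.49. With 1 array per line no difference has a replicate check or a p-value, and so few arrays limit the precision. A bulk measurement of this kind cannot tell apart fewer cells in mitosis and less of these transcripts per cell.

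**Figure D1:**
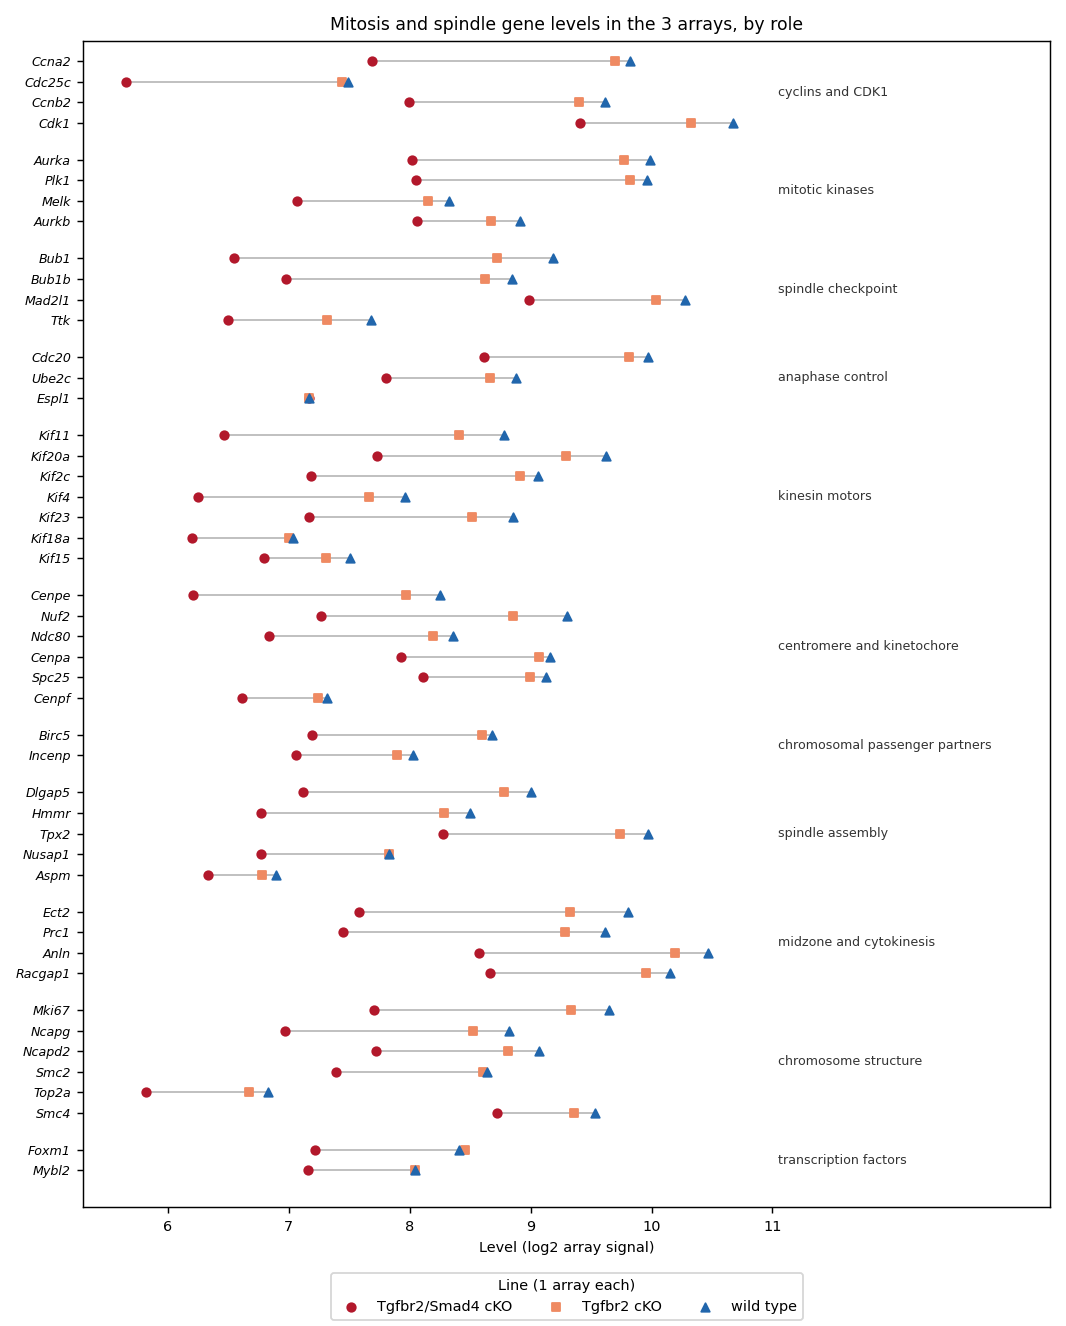
Levels (horizontal axis, log2 array signal) of 47 mitosis and spindle genes in the Tgfbr2/Smad4 cKO, Tgfbr2 cKO and wild-type arrays, 1 point per array, with genes grouped by role. The Tgfbr2/Smad4 cKO point is leftmost for 46 of the 47 genes, and the 3 points of Espl1 coincide.

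Values that bear on what the 3 cultures held are as follows. Tgfbr2 had 10.29 in Tgfbr2/Smad4 cKO, 10.25 in Tgfbr2 cKO and 10.25 in wild type, and Smad4 had 11.04 in Tgfbr2/Smad4 cKO and 11.06 in both Tgfbr2 cKO and wild type. Neither targeted gene was thus 2-fold different between arrays. Each value combines probes along a transcript whose positions were not examined, so deletion of part of it was not tested. Xist was at 9.44 in the Tgfbr2/Smad4 cKO array, 5.35 in the Tgfbr2 cKO array and 5.33 in the wild-type array, and the Y-linked Eif2s3y at 5.01 in Tgfbr2/Smad4 cKO, 10.00 in Tgfbr2 cKO and 10.12 in wild type. The line with the low mitosis genes thus had the female pattern, and the sex of the mouse cannot be told apart from its genotype. Fibroblast markers were bright, with 10 of 10 above the level rule in each array, and their median level was 13.79 in Tgfbr2/Smad4 cKO, 13.58 in Tgfbr2 cKO and 13.50 in wild type. In Tgfbr2/Smad4 cKO against wild type, 9 of the 10 were higher and 1 lower. At least 2-fold higher were 2 of them (20%), Pdgfra at 1.40 and Lum at 1.21, beside 1.22% of the 11808 genes. S100a4 itself was at 12.71 in Tgfbr2/Smad4 cKO, 13.16 in Tgfbr2 cKO and 13.18 in wild type. Epithelial markers reached the rule in 3 of 10 cases in at least 1 array, with Krt5, Krt14 and Epcam under it in every array. Of these 3, Perp was at 8.51 in Tgfbr2/Smad4 cKO, 7.63 in Tgfbr2 cKO and 8.04 in wild type. Krt18 was at 6.49 in Tgfbr2/Smad4 cKO, 6.80 in Tgfbr2 cKO and 7.10 in wild type, and Krt8 at 6.66, 6.69 and 6.96 in the same order. Of endothelial markers 1 of 7 and of leukocyte markers 4 of 10 reached the rule. Among the leukocyte markers, Lyz2 was at 7.75 in Tgfbr2/Smad4 cKO, 9.52 in Tgfbr2 cKO and 8.70 in wild type, and Cd68 at 6.76 in Tgfbr2/Smad4 cKO, 7.51 in Tgfbr2 cKO and 7.01 in wild type, while Ptprc was at 5.23 in every array. Smooth muscle markers were also lower, with 4 of 7 at least 2-fold lower in Tgfbr2/Smad4 cKO than in wild type, beside 2.18% of the 11808 genes. Their median level was 10.36 in Tgfbr2/Smad4 cKO, 12.75 in Tgfbr2 cKO and 12.68 in wild type. Among them Myh11 differed by -3.37 and Actg2 by -2.85, while Acta2 differed by -0.20. Of mesothelial markers 3 of 5 were at least 2-fold lower, beside the same 2.18%, with a median level of 6.74 in Tgfbr2/Smad4 cKO, 7.77 in Tgfbr2 cKO and 8.51 in wild type. These 3 were Upk1b at -3.48, Krt19 at -1.89 and Upk3b at -1.14. Upk1b, at 6.21 in Tgfbr2/Smad4 cKO, was under the level rule in that array. The part of these markers in the differences of the mitosis and spindle genes was not tested.

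The promoters of these genes share short sequence elements, which were read from RefSeq promoter sequences of build GRCm38.p6 covering 250 bases before to 50 bases after each start. Entries were found for 39 of the 48 listed genes. The element searched first was the cell cycle genes homology region (CHR), the site at which the MuvB core touches DNA, with the cores TTTGAA and TTTAAA. The second was the CCAAT box bound by NF-Y. Both strands were searched, where TTTGAA reads TTCAAA and CCAAT reads ATTGG. The core TTTGAA was present in 29 of the 39 genes (74.4%), against 13.7% of the 9468 genes with an entry that met the level rule and 20.2% of all 27025 genes with an entry of that length. TTTAAA was present in 25.6% of the members, against 14.9% of all genes with an entry, and CCAAT in 71.8%, against 41.1%. TTTGAA and CCAAT stood together in 25 of the 39 (64.1%), against 7.97% of all genes with an entry. The E2F cores GGCGGGAA and GCGCGAAA, typical of replication genes, were in 0 and 1 of the 39, against 2.52% and 0.374% of all genes with an entry. With 1 entry per gene, 27 of 37 TTTGAA matches (73%) lay in the last 50 bases before the start or after it, against 24.3% of 1177 matches in genes that met the level rule. In all, 1 match overlapped another.

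The following stretches run from 120 bases before to 30 bases after the start of the promoter entry, 5′ to 3′ on the gene's strand, with CHR cores and CCAAT boxes of either strand in capitals. Bub1 and Kif11 are shown for the largest differences between the Tgfbr2/Smad4 cKO and wild-type arrays. Cdc20, Ccnb2, Cdk1, Hmmr and Racgap1 are shown as promoters with at least 1 CCAAT box upstream of a CHR core near the start. Cdc20 has a further CCAAT box after its core, and Cdk1 a further core between its CCAAT boxes. Aspm is shown for a small difference, and Espl1 for equal values in all 3 arrays.
Bub1: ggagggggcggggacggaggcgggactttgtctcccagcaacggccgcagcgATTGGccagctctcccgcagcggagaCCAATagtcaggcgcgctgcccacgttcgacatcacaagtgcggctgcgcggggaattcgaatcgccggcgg
Kif11: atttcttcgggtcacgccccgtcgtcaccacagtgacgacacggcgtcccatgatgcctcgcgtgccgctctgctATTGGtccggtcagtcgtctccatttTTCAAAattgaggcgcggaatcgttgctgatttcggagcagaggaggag
Cdc20: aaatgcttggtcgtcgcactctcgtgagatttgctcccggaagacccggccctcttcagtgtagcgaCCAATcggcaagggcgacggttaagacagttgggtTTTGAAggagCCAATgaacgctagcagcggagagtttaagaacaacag
Ccnb2: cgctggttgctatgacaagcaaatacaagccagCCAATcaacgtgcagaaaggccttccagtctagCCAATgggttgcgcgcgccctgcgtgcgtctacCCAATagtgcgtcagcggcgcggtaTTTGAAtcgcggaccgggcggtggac
Cdk1: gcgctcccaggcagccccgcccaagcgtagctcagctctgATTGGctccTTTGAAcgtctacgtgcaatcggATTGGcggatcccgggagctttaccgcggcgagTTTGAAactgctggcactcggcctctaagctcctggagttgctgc
Hmmr: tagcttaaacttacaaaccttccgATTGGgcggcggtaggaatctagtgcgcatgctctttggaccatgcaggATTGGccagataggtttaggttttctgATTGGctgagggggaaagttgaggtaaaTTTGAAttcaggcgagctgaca
Racgap1: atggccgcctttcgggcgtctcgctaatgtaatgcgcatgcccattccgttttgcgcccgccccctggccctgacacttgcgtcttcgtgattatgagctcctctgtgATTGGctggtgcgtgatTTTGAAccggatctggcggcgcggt
Aspm: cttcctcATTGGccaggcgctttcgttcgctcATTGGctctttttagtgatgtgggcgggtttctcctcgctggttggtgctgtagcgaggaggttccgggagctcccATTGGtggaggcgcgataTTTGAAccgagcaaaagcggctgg
Espl1: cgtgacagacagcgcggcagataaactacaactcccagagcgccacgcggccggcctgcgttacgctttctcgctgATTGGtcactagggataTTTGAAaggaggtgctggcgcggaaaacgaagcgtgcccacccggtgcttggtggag
Regions on GRCm38.p6 are chr2:127831830-127831979 on the minus strand for Bub1, chr19:37376262-37376411 on the plus strand for Kif11, chr4:118437314-118437463 on the minus strand for Cdc20, chr9:70421525-70421674 on the minus strand for Ccnb2, chr10:69352883-69353032 on the minus strand for Cdk1, chr11:40733408-40733557 on the minus strand for Hmmr, chr15:99651627-99651776 on the minus strand for Racgap1, chr1:139454653-139454802 on the plus strand for Aspm, chr15:102296173-102296322 on the plus strand for Espl1. Espl1, without any difference between arrays, held a CCAAT box upstream of a TTTGAA, as Kif11 did on its own window, and Bub1, with the largest difference, held a pair of CCAAT boxes and no TTTGAA in its window. The median difference between the Tgfbr2/Smad4 cKO and wild-type arrays was -1.52 over 29 members with TTTGAA and -1.29 over 9 measured members without it. Over 25 members with both TTTGAA and CCAAT it was -1.49, and over the 13 without the pair it was also -1.49. For 6 of the 9 stretches the start is also the gene start in the RefSeq gene table. A match describes letters in a window and not a bound site.

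**Figure D2:**
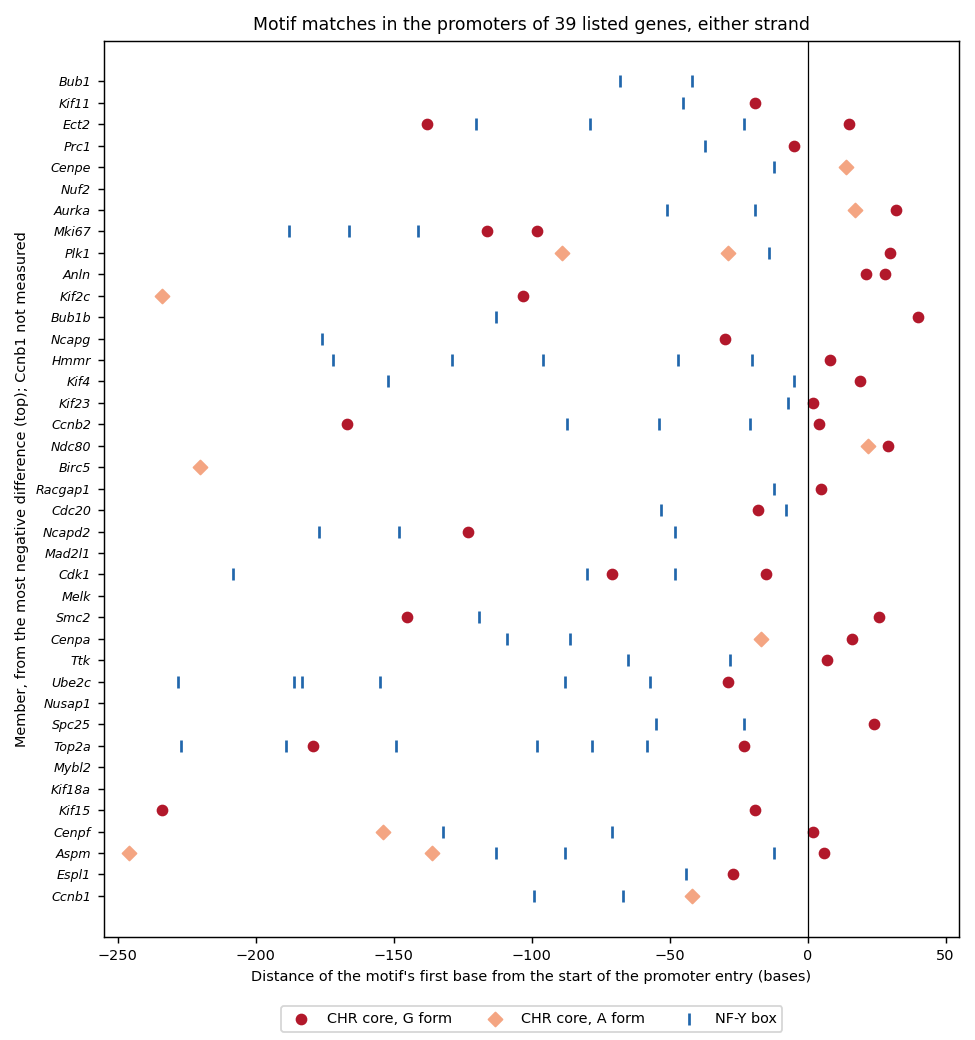
Positions of CHR cores (circles and diamonds) and CCAAT boxes bound by NF-Y (blue bars) on either strand in the promoters of 39 listed genes, with distance from the start of the promoter entry in bases on the horizontal axis and genes ordered by the difference between the Tgfbr2/Smad4 cKO and wild-type arrays. The circles mark TTTGAA, with 27 of 37 from 50 bases before the start onward, and for 2 genes with 2 entries the one of lower coordinate is drawn.

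Cyclins, CDK1 and its activating phosphatase were all at least 2-fold lower in the Tgfbr2/Smad4 cKO array. Ccna2, the cyclin of S phase and mitotic entry, had 7.69 in Tgfbr2/Smad4 cKO, 9.70 in Tgfbr2 cKO and 9.82 in wild type, a difference of -2.13 between the Tgfbr2/Smad4 cKO and wild-type arrays. Ccnb2, a B-type cyclin partner of CDK1, had 7.99 in Tgfbr2/Smad4 cKO, 9.40 in Tgfbr2 cKO and 9.62 in wild type, a difference of -1.62. Cdc25c, the phosphatase that removes inhibitory phosphates from CDK1, had 5.65 in Tgfbr2/Smad4 cKO, 7.44 in Tgfbr2 cKO and 7.49 in wild type, and its difference was -1.84. Its Tgfbr2/Smad4 cKO level was under the level rule, so the size of that difference rests on a dim signal. Cdk1 itself had 9.41 in Tgfbr2/Smad4 cKO, 10.33 in Tgfbr2 cKO and 10.67 in wild type. It differed from wild type by -1.26, the smallest difference of these 4 genes, and by -0.92 from the Tgfbr2 cKO array, which is short of 2-fold.

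Of the mitotic kinases, 3 of 4 were at least 2-fold lower. Aurka, which matures centrosomes and the spindle poles, had 8.02 in Tgfbr2/Smad4 cKO, 9.77 in Tgfbr2 cKO and 9.98 in wild type, a 3.9-fold lower level than in wild type. Plk1, which acts from mitotic entry to cytokinesis, had 8.05 in Tgfbr2/Smad4 cKO, 9.83 in Tgfbr2 cKO and 9.96 in wild type, a 3.78-fold lower level than in wild type. These 2 kinase genes had differences close to each other, and the other 2 had smaller ones. Melk, a kinase made in dividing cells, had 7.07 in Tgfbr2/Smad4 cKO, 8.15 in Tgfbr2 cKO and 8.32 in wild type, and its difference from wild type was -1.25. Aurkb, the kinase of the chromosomal passenger complex, had 8.06 in Tgfbr2/Smad4 cKO, 8.67 in Tgfbr2 cKO and 8.91 in wild type, and its difference of -0.86 did not reach 2-fold. Of the other listed members in that complex, 1 of 2 reached 2-fold. Cdca8, a gene of that complex outside the members, differed from wild type by -1.60. Birc5, the survivin gene, had 7.19 in Tgfbr2/Smad4 cKO, 8.60 in Tgfbr2 cKO and 8.68 in wild type, a difference of -1.49 from wild type. Incenp, the scaffold of that complex, had 7.06 in Tgfbr2/Smad4 cKO, 7.89 in Tgfbr2 cKO and 8.03 in wild type, and its difference of -0.97 lay just short of 2-fold.

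All 4 spindle checkpoint genes were at least 2-fold lower in the Tgfbr2/Smad4 cKO array. Bub1, a checkpoint kinase at the kinetochore, had 6.54 in Tgfbr2/Smad4 cKO, 8.72 in Tgfbr2 cKO and 9.18 in wild type, a 6.24-fold lower level than in wild type. That Tgfbr2/Smad4 cKO level was under the level rule, so the fold rests on a dim signal. Bub1b, which encodes the checkpoint protein BUBR1, had 6.98 in Tgfbr2/Smad4 cKO, 8.62 in Tgfbr2 cKO and 8.85 in wild type, a difference of -1.87. Mad2l1, the MAD2 subunit of the inhibitor that holds back anaphase, had 8.99 in Tgfbr2/Smad4 cKO, 10.04 in Tgfbr2 cKO and 10.28 in wild type, a difference of -1.29. The Tgfbr2/Smad4 cKO array was the low one for each of these. Ttk, the MPS1 kinase that starts checkpoint signaling, had 6.50 in Tgfbr2/Smad4 cKO, 7.32 in Tgfbr2 cKO and 7.68 in wild type, with differences of -1.18 from wild type and -0.82 from Tgfbr2 cKO. The genes that act once the checkpoint is satisfied were less alike. Cdc20, the activator of the anaphase-promoting complex (APC/C), had 8.62 in Tgfbr2/Smad4 cKO, 9.81 in Tgfbr2 cKO and 9.97 in wild type, a difference of -1.35 from wild type. Ube2c, the ubiquitin-conjugating enzyme that works with the APC/C, had 7.80 in Tgfbr2/Smad4 cKO, 8.67 in Tgfbr2 cKO and 8.88 in wild type, a difference of -1.08. Espl1, the gene of separase, which cuts cohesin at anaphase, had 7.16 in Tgfbr2/Smad4 cKO, in Tgfbr2 cKO and in wild type alike.

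Kinesin motors were at least 2-fold lower in 5 of 7 cases. Kif11, the motor that pushes spindle poles apart, had 6.46 in Tgfbr2/Smad4 cKO, 8.41 in Tgfbr2 cKO and 8.78 in wild type, a 4.98-fold lower level than in wild type. Here too the Tgfbr2/Smad4 cKO level was under the level rule. Kif20a, a motor of the central spindle, had 7.73 in Tgfbr2/Smad4 cKO, 9.29 in Tgfbr2 cKO and 9.63 in wild type, a difference of -1.90. Kif2c, the centromeric microtubule depolymerase also called MCAK, had 7.19 in Tgfbr2/Smad4 cKO, 8.91 in Tgfbr2 cKO and 9.06 in wild type, a difference of -1.87. Kif4 and Kif23, which act on chromosomes and at the midzone, differed from wild type by -1.72 and -1.69. The other 2 motors were lower by less than 2-fold. Kif18a, which dampens chromosome movement at metaphase, differed by -0.84. Kif15, a motor that can back up Kif11, had 6.80 in Tgfbr2/Smad4 cKO, 7.30 in Tgfbr2 cKO and 7.51 in wild type, a difference of -0.71.

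Centromere and kinetochore genes were lower in 6 of 6 cases, 5 of them at least 2-fold. Cenpe, a kinetochore motor that carries chromosomes to the spindle equator, had 6.20 in Tgfbr2/Smad4 cKO, 7.97 in Tgfbr2 cKO and 8.25 in wild type, a 4.13-fold lower level than in wild type. With its Tgfbr2/Smad4 cKO level under the level rule, that fold also rests on a dim signal. Nuf2 and Ndc80 encode partners in the NDC80 complex that grips microtubules. Nuf2 had 7.26 in Tgfbr2/Smad4 cKO, 8.86 in Tgfbr2 cKO and 9.30 in wild type, a difference of -2.03 from wild type. Ndc80 had 6.84 in Tgfbr2/Smad4 cKO, 8.19 in Tgfbr2 cKO and 8.35 in wild type, a difference of -1.52. Their partner in the same complex, Spc25, differed by -1.02, so 3 subunits of 1 complex had differences of unequal size on these probe sets. Cenpa, the histone variant that marks centromeres, differed by -1.23. Cenpf, a large protein of the outer kinetochore, had 6.61 in Tgfbr2/Smad4 cKO, 7.24 in Tgfbr2 cKO and 7.31 in wild type, and its difference of -0.70 was the smallest of the 6.

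Among spindle assembly genes, 4 of 5 were at least 2-fold lower. Dlgap5, a spindle protein also called HURP, had 7.11 in Tgfbr2/Smad4 cKO, 8.78 in Tgfbr2 cKO and 9.00 in wild type, a difference of -1.89 from wild type. Hmmr, a microtubule-binding protein that was first named as a hyaluronan receptor, had 6.77 in Tgfbr2/Smad4 cKO, 8.29 in Tgfbr2 cKO and 8.50 in wild type, a difference of -1.73. Tpx2, the activator of Aurora A on the spindle, had 8.28 in Tgfbr2/Smad4 cKO, 9.74 in Tgfbr2 cKO and 9.97 in wild type, a difference of -1.69. Nusap1, which bundles spindle microtubules, had the same value in the Tgfbr2 cKO and wild-type arrays and differed from both by -1.06 in the Tgfbr2/Smad4 cKO array. Aspm, a spindle pole protein, had 6.33 in Tgfbr2/Smad4 cKO, 6.77 in Tgfbr2 cKO and 6.89 in wild type, and its difference of -0.56 was the smallest among the members with unequal values.

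The cytokinesis genes formed the role group with the largest median difference, -2.03. Ect2, the exchange factor that activates RhoA for the cleavage furrow, had 7.58 in Tgfbr2/Smad4 cKO, 9.32 in Tgfbr2 cKO and 9.80 in wild type, a 4.67-fold lower level than in wild type. Prc1, the bundler of midzone microtubules, had 7.44 in Tgfbr2/Smad4 cKO, 9.28 in Tgfbr2 cKO and 9.61 in wild type, a 4.5-fold lower level than in wild type. Anln, the furrow scaffold anillin, had 8.57 in Tgfbr2/Smad4 cKO, 10.19 in Tgfbr2 cKO and 10.46 in wild type, a difference of -1.89. Each of the 4 genes was lower by more than the members' own upper quartile of -1.07. Racgap1, which with Kif23 forms the centralspindlin complex that recruits ECT2, had 8.67 in Tgfbr2/Smad4 cKO, 9.95 in Tgfbr2 cKO and 10.16 in wild type, a difference of -1.49.

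Chromosome structure genes were at least 2-fold lower in 5 of 6 cases. Mki67, the gene of the Ki-67 antigen that coats mitotic chromosomes and serves as the standard proliferation marker, had 7.70 in Tgfbr2/Smad4 cKO, 9.34 in Tgfbr2 cKO and 9.65 in wild type, a 3.84-fold lower level than in wild type. The condensin subunit gene Ncapg had 6.97 in Tgfbr2/Smad4 cKO, 8.53 in Tgfbr2 cKO and 8.82 in wild type, a difference of -1.86. Ncapd2, a further condensin I subunit, had 7.72 in Tgfbr2/Smad4 cKO, 8.81 in Tgfbr2 cKO and 9.07 in wild type, a difference of -1.35. The ATPase subunits shared by both condensins differed less, with -1.25 for Smc2. Smc4 had 8.72 in Tgfbr2/Smad4 cKO, 9.36 in Tgfbr2 cKO and 9.53 in wild type, a difference of -0.80. Top2a, the topoisomerase that untangles sister chromatids, was the 1 member with more than 1 probe set. Its average had 5.81 in Tgfbr2/Smad4 cKO, 6.67 in Tgfbr2 cKO and 6.82 in wild type, a difference of -1.01. The brighter probe set of Top2a had 8.04 in Tgfbr2/Smad4 cKO, 9.67 in Tgfbr2 cKO and 9.99 in wild type, a difference of -1.95, and the dimmer had 3.58 in Tgfbr2/Smad4 cKO and 3.66 in both Tgfbr2 cKO and wild type. The 2 probe sets of Top2a thus disagree, and the average lies between their differences.

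Both transcription factors that drive this program were lower in the Tgfbr2/Smad4 cKO array. Foxm1, the forkhead factor of the G2 and mitosis program, had 7.22 in Tgfbr2/Smad4 cKO, 8.45 in Tgfbr2 cKO and 8.41 in wild type, a difference of -1.19 from wild type and of 0.05 between Tgfbr2 cKO and wild type. Mybl2, the B-MYB gene whose protein joins MuvB, had 7.15 in Tgfbr2/Smad4 cKO, 8.04 in Tgfbr2 cKO and 8.04 in wild type, and its difference of -0.89 was short of 2-fold. The Foxm1 and Mybl2 levels were the same or slightly higher in Tgfbr2 cKO than in wild type, unlike nearly all other members.

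Setting the Tgfbr2/Smad4 cKO array against the Tgfbr2 cKO array bears on the added loss of Smad4. Tissue of origin and sex, by Xist and Eif2s3y, also differed, and neither can be told apart from that loss. Here 33 of 47 members (70.2%) were at least 2-fold lower and 0 at least 2-fold higher, beside 2.25% and 1.32% of the 11808 genes. Below 0 were 46 members, above 0 were 0 and exactly equal was 1, beside 33.7%, 30.2% and 36.1% of all genes. The median difference was -1.35, a 2.55-fold lower level. Bub1 and Ccna2 had the largest differences, -2.18 and -2.01, and Kif11, Prc1 and Cdc25c followed with -1.94, -1.84 and -1.79. Members under 2-fold here and over 2-fold against wild type were Cdk1, Ttk, Ube2c, Spc25 and, by its average, Top2a. The brighter probe set of Top2a differed by -1.63 here. The 33 members counted above were at least 2-fold lower than in both other arrays, which was so for 1.87% of all genes. The comparisons share the Tgfbr2/Smad4 cKO array, so they are not independent of each other.

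Between Tgfbr2 cKO and wild type, the same genes differed by small amounts and mostly in 1 direction. Of 47 members, 43 were lower in the Tgfbr2 cKO array, 1 was higher and 3 were equal, against 19% of the 11808 genes lower, 25.8% higher and 55.1% exactly equal. Among the members 0 were 2-fold lower and 0 were 2-fold higher, beside 0.00847% and 0.0254% of genes, and the members' median of -0.21 is a 1.16-fold lower level. The largest differences were -0.48 for Ect2, -0.47 for Bub1, -0.44 for Nuf2 and -0.37 for Kif11. Cdk1 and Mki67 differed by -0.34 and -0.31, while Smc2, Kif18a and Cdc25c differed by -0.03, -0.04 and -0.05. Foxm1, at 0.05, was the 1 member higher in Tgfbr2 cKO, and Espl1, Nusap1 and Mybl2 had equal values. By a rule added after the values were seen, 37 of the 47 members were in the lowest 5.01% of genes in this comparison, at or below -0.11. Without replicate arrays it is not known how far 2 arrays of 1 line would differ, so differences of this size have no measured error to set them against. This pair also differs in tissue of origin, a carcinoma against normal forestomach, which cannot be told apart from genotype.

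**Figure D3:**
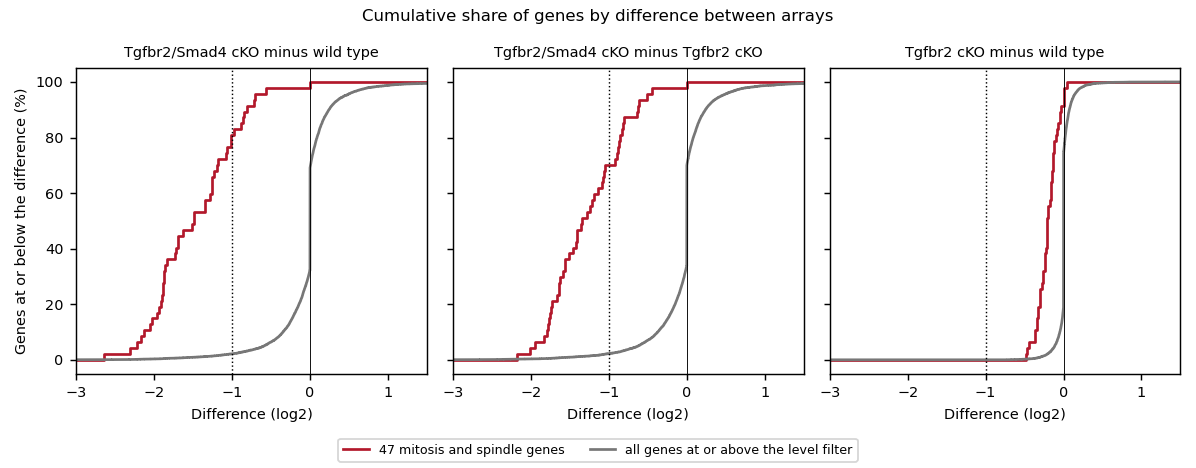
Cumulative percentage of genes (vertical axis) at or below a log2 difference (horizontal axis) for 47 mitosis and spindle genes (red) and 11808 genes that met the level rule (grey), 1 panel per comparison. The dotted line marks 2-fold lower, which 38 and 33 members reached against wild type and Tgfbr2 cKO in the Tgfbr2/Smad4 cKO array and 0 reached in Tgfbr2 cKO against wild type. The step of the grey curve at 0 holds the exactly equal values.

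Seen over all 3 arrays, 43 of 47 members were lowest in Tgfbr2/Smad4 cKO, intermediate in Tgfbr2 cKO and highest in wild type, an order shared by 7.96% of genes. The reverse order held for 0 members and 8.14% of genes. The 4 exceptions were Espl1, Nusap1, Mybl2 and Foxm1. The median member difference was -1.35 between Tgfbr2/Smad4 cKO and Tgfbr2 cKO and -0.21 between Tgfbr2 cKO and wild type. When the members were divided by their mean level over the arrays, the 24 brighter ones had a median difference between Tgfbr2/Smad4 cKO and wild type of -1.66 and the 23 dimmer ones of -1.25. In the dimmer part 16 of 23 were at least 2-fold lower and in the brighter part 22 of 24.

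**Figure D4:**
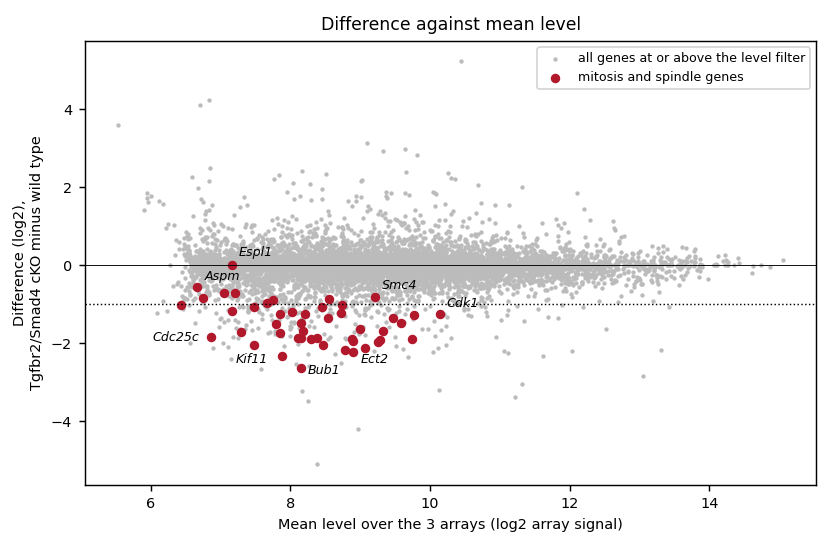
Log2 difference between the Tgfbr2/Smad4 cKO and wild-type arrays (vertical axis) against the mean log2 signal of the 3 arrays (horizontal axis), with each gene that met the level rule in grey and mitosis and spindle genes in red. The red points lie below 0 over their whole range of levels apart from Espl1 at 0, with Bub1 lowest at -2.64.

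Other genes of mitosis, taken from a wider list, were lower less uniformly. Of 92 that met the level rule, 30 (32.6%) were at least 2-fold lower in Tgfbr2/Smad4 cKO than in wild type, beside 2.18% of the 11808 genes. Below 0 were 70 and above 0 were 8, with a median of -0.43. In the Tgfbr2/Smad4 cKO array 79 of the 92 reached the level rule. The list was chosen with earlier results of these data known. It includes APC/C and cohesin subunits, of which 0 were 2-fold lower, so its share depends on its make-up. The lowest were the mitotic kinase gene Pbk at -2.01, Depdc1a at -1.99 and Mastl at -1.83, the kinase also called Greatwall. Depdc1a, at 5.83, and Mastl, at 6.04, were under the level rule in the Tgfbr2/Smad4 cKO array. The sizes of their differences thus rest on dim signals. The highest were Anapc13 at 0.44, Anapc11 at 0.23 and the cohesin subunit gene Smc1a at 0.18. The APC/C, the ubiquitin ligase that ends mitosis, had a median of 0 over the 12 subunit genes on the list, 6 of them with exactly equal values in that pair of arrays, and a range of -0.15 to 0.44. Cohesin, which holds sister chromatids together and also shapes chromatin outside mitosis, had 5 listed subunit genes between -0.27 and 0.18, with a median of 0. Levels of the APC/C activator Cdc20 and its enzyme Ube2c were thus lower while those of the 12 ligase subunits were not 2-fold different. A further activator gene, Fzr1, differed by -0.03 and a further enzyme gene, Ube2s, by -0.65, so neither was 2-fold lower.

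Within single machines the listed and unlisted parts could be set side by side. Of 4 further condensin subunits, Ncapg2 and Ncaph differed by -1.81 and -1.45, and Ncapd3 and Ncaph2 by -0.34 and 0.04. Of 4 further kinesins, Kif20b and Kif18b differed by -1.37 and -1.10, Kif22 by -0.92 and Kif2a, which is also used outside mitosis, by -0.31. Of 12 further CENP genes 4 were at least 2-fold lower, and of 15 outer kinetochore and checkpoint partners 4 were, with medians of -0.24 and -0.40. Over all 11808 genes the share was 2.18%. In the Tgfbr2/Smad4 cKO array 9 of the 12 and 11 of the 15 reached the level rule. The kinetochore scaffold gene Knl1, to which BUB1 binds, differed by -1.65. Knl1, at 6.46, and Kif20b, at 6.15, were under the level rule in the Tgfbr2/Smad4 cKO array. Among regulators of CDK1, Cks2 differed by -1.11, Cks1b by -0.50, Cdc25a by -0.46, Pkmyt1 by -0.40, Wee1 by -0.09 and Cdc25b by 0.

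Genes of DNA replication, which are made for the preceding S phase, were also lower but by less. Of 37 that met the level rule, 7 (18.9%) were at least 2-fold lower in Tgfbr2/Smad4 cKO than in wild type, beside 2.18% of the 11808 genes. Below 0 were 33 and above 0 were 0, with a median of -0.56. In the Tgfbr2/Smad4 cKO array 36 of the 37 reached the level rule. The helicase subunit gene Mcm6 differed by -1.95, the ribonucleotide reductase gene Rrm2 by -1.82 and the primase gene Prim1 by -1.71, while E2f1, Gins4 and Ung had equal values. Between Tgfbr2 cKO and wild type, 18 of the 37 replication genes were lower, 4 higher and 15 equal, with a median of 0, beside 43 lower members of 47 among the mitosis and spindle genes. The shares differ between lists, and with 1 array per line the difference between lists was not tested.

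The genes of the DREAM complex and its MuvB core were mostly near 0. Of 11 subunit genes 0 were 2-fold different between Tgfbr2/Smad4 cKO and wild type, with a median of -0.08. Over the 11808 genes 2.18% were at least 2-fold lower and 1.22% at least 2-fold higher. A count of 0 among 11 genes is near those shares and does not set this list apart. The 2 pocket protein genes differed in opposite directions. Rbl2, the p130 gene whose protein builds DREAM in resting cells, had 9.62 in Tgfbr2/Smad4 cKO, 8.91 in Tgfbr2 cKO and 8.91 in wild type, a difference of 0.72 from wild type. Rbl1, the related p107 gene, which is itself expressed in dividing cells, had 7.28 in Tgfbr2/Smad4 cKO, 8.05 in Tgfbr2 cKO and 8.10 in wild type, a difference of -0.82. The CHR-binding subunit gene Lin54 differed by -0.09 and the DREAM factor gene E2f4 by -0.08.

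**Figure D5:**
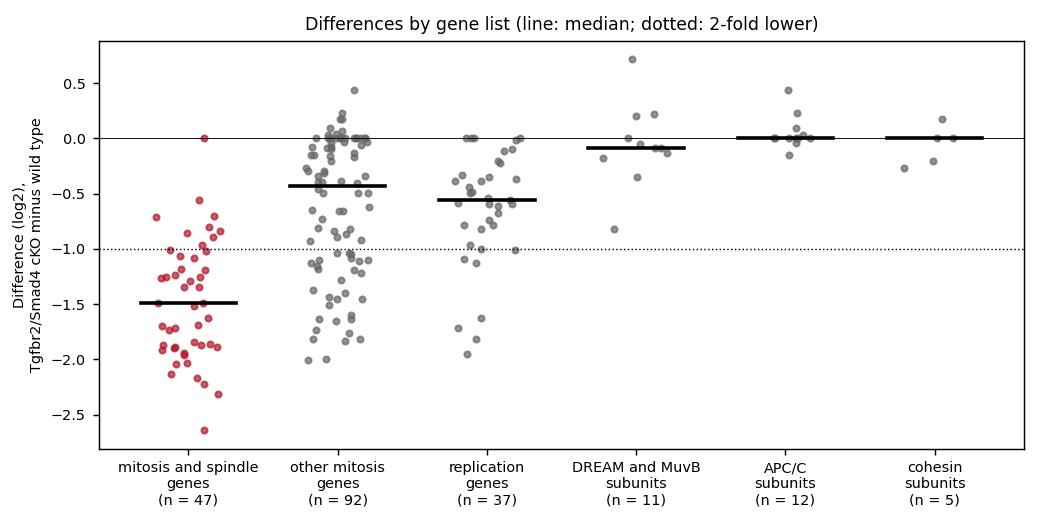
Log2 differences between the Tgfbr2/Smad4 cKO and wild-type arrays (vertical axis) for 6 gene lists, 1 point per gene, with a black line at each median and a dotted line at 2-fold lower. The mitosis and spindle genes have a median of -1.49, other mitosis genes -0.43, replication genes -0.56, and DREAM and MuvB, APC/C and cohesin subunits -0.08, 0 and 0, the last 2 lists being part of the other mitosis genes.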

How the data were processed

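The table that the authors deposited lists 35556 probe sets with 1 signal per array. Its deposited values range between 2.82 and 15.6 and were read as log2. The labels' protocols name the array, and how signals were corrected and normalized is not given in the sources used here. Across arrays, medians lay within 0.00413 of each other, and no further scaling was applied. Between 44.1% and 56.1% of probe sets were exactly equal in a pair of arrays, which can hide small differences. Platform annotation gave 1 symbol for 21789 probe sets and several for 1621, and 12146 are unnamed here. Symbols were updated with a RefSeq gene table (GRCm38.p6) for 21698. Probe sets of a gene were averaged, giving 19938 genes. Genes were compared if they reached the median of all values, 6.63, in at least 1 array, and 2-fold set the calls.

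Levels in every array were given for the members with the 3 largest and the smallest difference between Tgfbr2/Smad4 cKO and wild type in each role group, and for 7 measured genes fixed by name (Mki67, Cdk1, Plk1, Aurkb, Foxm1, Mybl2 and Top2a). Of other mitosis genes, the 3 lowest and 3 highest differences were named by rule, and others were named by their place in a complex. The members, lists and tests were chosen with earlier results of these data known. Counting was tested on simulated data with noise of a chosen size and no exactly equal values. That test covers the counting step only and not the differences between these arrays. Alternatives were median centring, quantile and cyclic loess normalization, other level filters, probe set rules, an offset and size rules, beside 2 restrictions on genes and the lowest-5% rule, which were chosen after seeing the data. Normalization alternatives ran in limma 3.58.1 (R 4.3.3), and everything else in Python 3.11.15 with pandas 2.3.3, numpy 2.4.6 and matplotlib 3.10.9.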

Additional observations from a re-analysis of the deposited data

How the results depend on the processing

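No paired analysis was possible because each group has 1 array. Of 128 counts and medians over the members under other settings, 12 moved, a count by over 1.5 times or a median by over 0.1, and of 1059 member differences over all settings and comparisons 0 passed to the opposite sign. Exactly equal values became differences of at most 0.0214 in size under rescaling, so their sign follows the scaling. Members below 0 then numbered 47 in both Tgfbr2/Smad4 cKO comparisons under median centring and cyclic loess. In Tgfbr2 cKO minus wild type they numbered 44 under quantile normalization and 46 under cyclic loess, with as many in the stated order of levels. With the filter at the 75th percentile 25 members were left. At least 2-fold lower were then 23 in Tgfbr2/Smad4 cKO minus wild type and 20 in Tgfbr2/Smad4 cKO minus Tgfbr2 cKO, with medians of -1.69 and -1.46, and 25 were below 0 in each of the 3 comparisons and ordered wild type, Tgfbr2 cKO, Tgfbr2/Smad4 cKO. These counts are lower because fewer members were used. With an offset of 32 on the linear signal the medians were -1.31 against wild type and -1.15 against Tgfbr2 cKO, as an offset shrinks differences of dim genes. With a 3-fold rule 22 and 15 members were lower. Using the brighter Top2a probe set moved its differences by over 0.1. The log2 array signals limit dim members most, and a pair of arrays without replicates gives no error for any difference. Restricting to members at the level rule in the Tgfbr2/Smad4 cKO array, or to genes with 3 distinct values, both chosen after seeing the data, moved none of these counts or medians. Over all genes, lower and higher calls of Tgfbr2/Smad4 cKO minus wild type numbered 257 and 144, 147 and 104 with the 75th-percentile filter, 601 and 396 at 1.5-fold, and 96 and 55 at 3-fold. For Tgfbr2/Smad4 cKO minus Tgfbr2 cKO they numbered 266 and 156, then 156 and 113, 663 and 401, and 100 and 61. For Tgfbr2 cKO minus wild type, 1 was lower and 3 higher, 2 and 3 under cyclic loess, 19 and 25 at 1.5-fold, and 0 and 0 at 3-fold.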

Other observations

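The wider list of mitosis genes could be set beside its promoters. TTTGAA was present in 37 of 88 of its genes with an entry (42%) and in 4 of 31 replication genes (12.9%), beside 29 of 39 mitosis and spindle genes, while CCAAT was present in 60.2%, 54.8% and 71.8% of the same lists. The E2F core GCGCGAAA was in 6 of 31 replication genes (19.4%) and in 0 of 88 other mitosis genes.

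Exactly equal values were rare among the mitosis and spindle genes. In Tgfbr2/Smad4 cKO against wild type 1 of 47 (2.13%) was equal, against 36.7% of all genes, and in Tgfbr2 cKO against wild type 3 of 47 (6.38%), against 55.1% of all genes. Some genes with a known place in the cell cycle were nonetheless listed with the same value in all 3 arrays or in a pair of them. Espl1 was at 7.16, Cdc25b at 7.43, E2f1 at 9.19 and Gins4 at 9.31 in each array, and Gtse1, at 9.27 in Tgfbr2/Smad4 cKO, was at 9.09 in both Tgfbr2 cKO and wild type. These genes were chosen after their values were seen.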
